A study of Spodoptera frugiperda with 12 samples.

Results

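Of the 17120 loci with m6A peaks in embryos of the fall armyworm *Spodoptera frugiperda*, 518 (3.03%) carried exactly 1 peak in each of the 6 deposited peak lists. A locus is a group of same-strand peaks less than 2000 bases apart, pooled over the lists, and stands here for a transcribed unit or a piece of one. The 518 loci make up 5.79% of the 8945 loci that had a peak in all 6 lists, which are called shared loci below. They were chosen by the measured number of peaks per list, so their presence and their single peak are a description and not a finding. The lists come from whole embryos of a laboratory stock collected in large numbers 2 h and 24 h after oviposition, with 3 m6A-captured samples (replicates 1 to 3) at each time and no other treatment or genotype. Uncaptured input samples (3 per time) complete the 12 samples of the series and were not used here. Whether the replicates of a time are separate egg collections is not stated in the labels, and all p-values below therefore reflect the spread of these samples alone, part of which may be technical.

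N6-methyladenosine (m6A) is a methyl mark that a nuclear enzyme complex places on adenosines within messenger RNA, and reader proteins that bind it influence splicing, export, translation and decay of the RNA. A transcript can carry many marks or a few, and in vertebrates they gather near stop codons and in 3' untranslated regions, while in *Drosophila* many lie in 5' untranslated regions. In early insect embryos the RNA at first comes from the mother and is later replaced by RNA from the embryo's own genome.

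The lists held 51157 to 58161 peaks each. They give no reads, and the depth of each sample is unknown. Each peak has a score made by the authors, which was infinite for 0.930% to 1.5% of the peaks in a list. A locus without enough RNA gives no peak, and fewer cells with a transcript cannot be told apart from less of it per cell. No source used here names the genome build, so positions are on the sequence names of the lists, counted from 1, and genes, exons and introns at these positions were not analysed here. For the same reason the embryo label was not checked against marker genes. Of the 518 loci, 0 lay on the mitochondrial sequence. They numbered 252 on the plus strand and 266 on the minus strand.

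Just outside the rule, 181 loci had 1 peak in 5 lists and 0 in the sixth, and 288 had 1 peak in 5 lists and 2 in the sixth. The missing peak was that of a 24 h list in 114 of the 181 loci and of a 2 h list in 67. The extra peak was likewise more often that of a 24 h list, in 170 of the 288 loci against 118. Near misses by absence had weak peaks, with list medians from the 36.3 to the 39.4 percentile of the score and from 50 to 75 bases. Near misses by an extra peak had list medians from the 68.6 to the 73.5 percentile and from 150 to 225 bases. The 518 loci themselves stood at medians of 82.0 to 84.6 and of 200 to 250 bases. The joining distance also has an edge: 107 of the 518 loci had a same-strand neighbour less than 2500 bases away, the nearest at 2002 bases.

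The single peaks were wide and strong for their lists. Their median span was 239.5, 250 and 250 bases in the 2 h lists and 200, 225 and 200 bases in the 24 h lists. The peaks of the other 8427 shared loci, pooled, had a median of 75 bases in each of the 6 lists. The difference was 152 ± 23.1 bases on average (SD, n = 6 lists), positive in each of them. In score percentile the single peaks had list medians of 82.4, 82.8 and 82.0 at 2 h and 84.1, 84.6 and 83.8 at 24 h, against 51.9 to 55.0 for the peaks of other shared loci. This gap was 29.8 ± 0.359 points (SD, n = 6), positive in each list. The rule keeps only peaks called in all 6 lists while the comparison pools every peak of a locus, so both gaps are descriptions with no test.

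The gap in score was smaller when 1 peak per locus was compared with 1 peak per locus. The strongest peak of each other shared locus had list medians of 76.2 to 78.4 at 2 h and 80.5 to 81.0 at 24 h, and a median span of 150 bases in each 2 h list and 125 bases in each 24 h list. Against these, the single peaks stood 4.06 ± 0.972 percentile points higher and were 89.9 ± 12.2 bases wider (SD, n = 6, 6 of 6 lists for both). Both gaps are again descriptions with no test, and this comparison was added after the data were seen. The rule favours wide peaks: a stretch covered by 1 long peak counts as single while the same stretch cut in pieces does not. Score differed with span, as given below, so how much of the percentile gap the rule sets is not known.

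**Figure D1:**
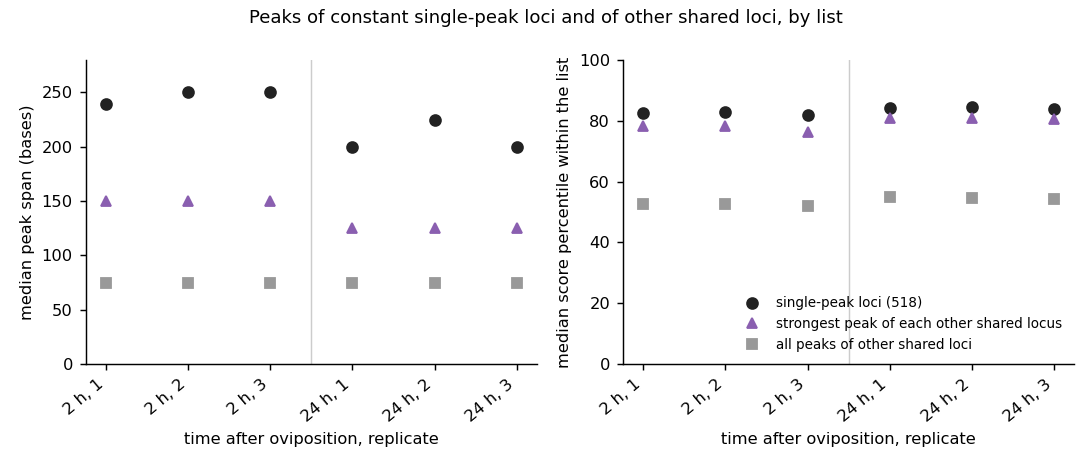
Median peak span in bases (left) and median score percentile within the list (right) for each of the 6 lists, for the 518 single-peak loci (circles), the strongest peak of each other shared locus (triangles) and all peaks of other shared loci (squares). Circles lie above both other symbols in every list, and the spans of circles and triangles are lower in the 24 h lists.

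Peak span divided the 518 loci into kinds. In 351 loci (67.8%) all 6 peaks spanned at most 1000 bases, and these are called compact. In 79 loci (15.3%) all 6 peaks spanned more than 1000 bases, and in 88 (17.0%) some did and some did not. By the median of its 6 peaks, a locus spanned at most 50 bases in 44 cases, above 50 and up to 100 in 87, above 100 and up to 200 in 98, above 200 and up to 500 in 115, and over 10000 bases in 44. Of member peaks up to 1000 bases, 75.1% were a whole multiple of 25 bases, against 87.4% of all such peaks in the lists. Of those over 1000 bases 5.69% were, so long spans are read as genomic extents that can hold introns. Peaks over 1000 bases made up 24.9% ± 1.17 (SD, n = 6) of the single peaks and 4.44% ± 0.296 of the remaining peaks.

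**Figure D2:**
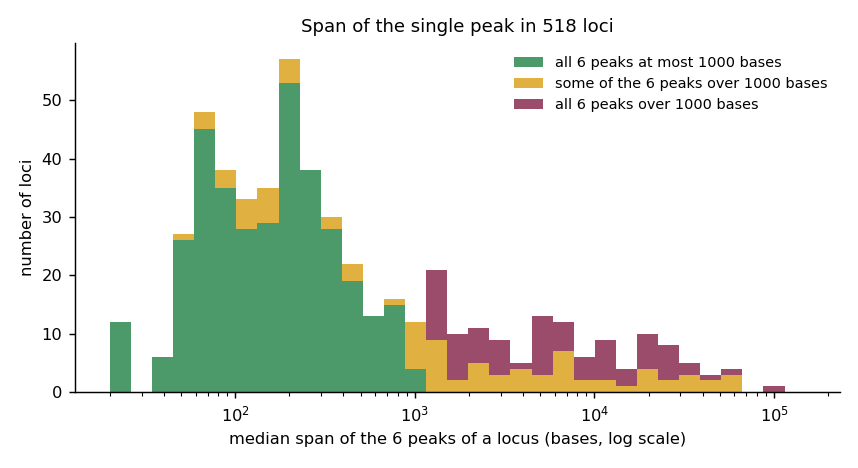
Number of loci (y axis) by the median span of their 6 peaks in bases (x axis, log scale), stacked by whether all, some or none of the 6 peaks exceed 1000 bases. Most loci lie between 50 and 500 bases, with a tail of long genomic extents beyond 1000.

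Of the 3 widest loci, 2 had nearly the same span in all 6 lists. The widest, on the minus strand of NC_049728.1 from 13564956 to 13672577, spanned 107522, 107522 and 107547 bases in the 2 h lists and 107547, 107572 and 107472 in the 24 h lists. A plus-strand locus of NC_049715.1 from 355887 to 410548 spanned 54612 to 54662 bases in all 6 lists. The third, on the minus strand of NC_049715.1 from 1422061 to 1480896, spanned 58761 to 58836 bases in 5 lists and 125 bases in the third 2 h list. The short peak of that list lay within the span of the other 5, and the locus still counted as 1 peak.

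Score differed with span, though not evenly. Loci with a median span above 200 and up to 1000 bases had a median mean percentile of 91.2 (153 loci), those over 1000 bases 87.1 (136 loci), those above 100 and up to 200 bases 72.3 (98 loci) and those above 50 and up to 100 bases 65.3 (87 loci). The narrowest, up to 50 bases, stood at 75.4 (44 loci). Spearman's rho between median span and mean percentile was 0.28 over the 518 loci and 0.39 over the 351 compact ones, a description across loci that share the same 6 libraries.

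The peaks became narrower at 24 h. The list medians, 246.5 ± 6.06 bases at 2 h and 208 ± 14.4 at 24 h (n = 3 each, SD), did not overlap and differed by -38.2 bases (exact two-sided permutation p = 0.1, the smallest that 3 lists against 3 can give). In compact loci the medians were 170, 175 and 165 bases at 2 h and 150 bases in each 24 h list (p = 0.1, exact two-sided permutation). The number of single peaks over 1000 bases was 133 or 134 in the 2 h lists and 119 to 128 in the 24 h lists, 134 ± 0.577 against 124 ± 4.58 on average (n = 3, SD; exact two-sided permutation p = 0.1). When only peaks of at most 1000 bases were used to build loci, the difference in median width was -7.67 bases (exact two-sided permutation p = 0.6).

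The same narrowing was present outside these loci. The comparison set was 9035 regions inside other shared loci, each a merged stretch with exactly 1 peak of at most 1000 bases in every list. Of those, 10.9% had all 3 peaks of 24 h narrower than all 3 of 2 h, and 2.45% had them wider. Among the 321 compact loci whose 6 peaks shared bases, 42 (13.1%) were narrower and 16 (4.98%) were wider in this sense.

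Peaks of exactly 75 bases were more frequent at 24 h outside the single-peak loci, while inside them the times were not separated. They made up 8.49%, 9.27% and 9.65% of the single peaks in the 2 h lists and 12.0%, 7.72% and 7.34% in the 24 h lists, so the times overlapped (exact two-sided permutation p = 1). With loci joined at 500 bases the difference inside was 1.30 points higher at 24 h without overlap (p = 0.1, exact permutation). Outside the 518 loci the share was 15.7% to 16.2% at 2 h and 20.5% to 24.1% at 24 h. These outside peaks include those of loci present at 1 time only, which the rule bars. In the peaks of other shared loci alone it was 15.5% to 16.1% at 2 h and 19.3% to 22.0% at 24 h. The gap between the share of all outside peaks and the inside share was 6.90 ± 0.854 percentage points at 2 h and 13.2 ± 1.02 at 24 h (n = 3 each, SD). The rule favours wide peaks and bars loci of 1 time, so how much of this gap and of its growth it sets is not known. The gap grew by 6.26 points (exact two-sided permutation p = 0.1, with no overlap of the lists). In other shared loci alone the share rose by 4.74 points, while the inside share changed by -0.129 points. With only the stronger 50% of each list the growth of the gap was 2.97 points (p = 0.1, exact permutation).

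In most loci the 6 lists marked the same stretch. All 6 peaks had at least 1 base in common in 476 of the 518 loci (91.9%), and in 468 the common stretch covered at least 50% of the shortest peak. In 29 loci start and end were identical in all 6 lists. Of the 42 loci without a common base, 27 had the 3 peaks of 2 h sharing bases and those of 24 h not, 5 had the reverse, 6 had both times sharing within themselves, and 4 had neither. Among the 30 compact loci of these 42 is a minus-strand locus of NC_049713.1 from 779891 to 781662, whose peaks spanned 25, 356 and 381 bases at 2 h and 381, 25 and 381 bases at 24 h.

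Peak midpoints moved little between times. Over the 351 compact loci the mean midpoint at 24 h lay within 25 bases of that at 2 h in 285 (81.2%), exactly on it in 52, and more than 100 bases away in 22. The median absolute shift was 12.5 bases, which is less than 1 step of 25 bases. For the 321 loci sharing bases it was 8.33 bases, as it was for the 9035 regions of other shared loci. Midpoints were equal in 46.8% of these loci for the average pair of 2 h lists, 37.6% for pairs of 24 h lists and 32.1% for pairs of different times. In the regions of other shared loci the same averages were 46.2%, 38.4% and 35.9%.

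Small shifts went downstream more often than upstream, in these loci and in the comparison regions. All directions follow the deposited strand, and since the kit is not described as marking strand, upstream and downstream here and below rest on that column. Along it 192 of the 351 compact loci had a mean midpoint further downstream at 24 h and 107 further upstream. Of the 9035 comparison regions 4209 shifted downstream and 3100 upstream, with a median signed shift of 0 bases. The mean over loci, which a few large shifts carry, was 1.16 bases (exact two-sided permutation p = 0.4 over the list means), and its sign changed under other settings, to -6.51 bases when only peaks of at most 1000 bases were used. Among the 321 loci sharing bases, 33 (10.3%) had every 24 h midpoint downstream of every 2 h midpoint and 5 (1.56%) had the reverse. The comparison regions gave 6.14% downstream and 3.31% upstream.

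On average over the loci both edges drew inwards at 24 h, the upstream one more. The counts by locus below do not lean inwards for the downstream edge. Relative to the mean of the 6 lists, the upstream edge of the 321 loci lay at offsets of -5.79, -10.2 and -4.48 bases in the 2 h lists and 10.1, 2.98 and 7.43 bases in the 24 h lists, where positive means downstream. The upstream edge was thus 13.7 bases further downstream at 24 h (exact two-sided permutation p = 0.1). The downstream edge lay at 2.26, 2.1 and 6.24 bases at 2 h and at -8.83, -0.445 and -1.31 bases at 24 h, a difference of -7.06 bases (exact two-sided permutation p = 0.1). For both edges the lists of the 2 times did not overlap. In the 9035 comparison regions the upstream edge moved by 10.6 bases and the downstream edge by -4.91 bases (exact two-sided permutation p = 0.1 for each). By locus, 45 of 321 (14%) had every 24 h upstream edge downstream of every 2 h one and 6 (1.87%) the reverse, against 8.06% and 1.79% of the comparison regions. For the downstream edge the counts were 10 (3.12%) moving upstream and 12 (3.74%) moving downstream, against 3.72% and 1.60%. The downstream edge was identical in all 6 lists in 79 loci (24.6%) and the upstream edge in 56 (17.4%), against 30.0% and 19.0% of comparison regions. This description of edges was added after the data were seen.

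**Figure D3:**
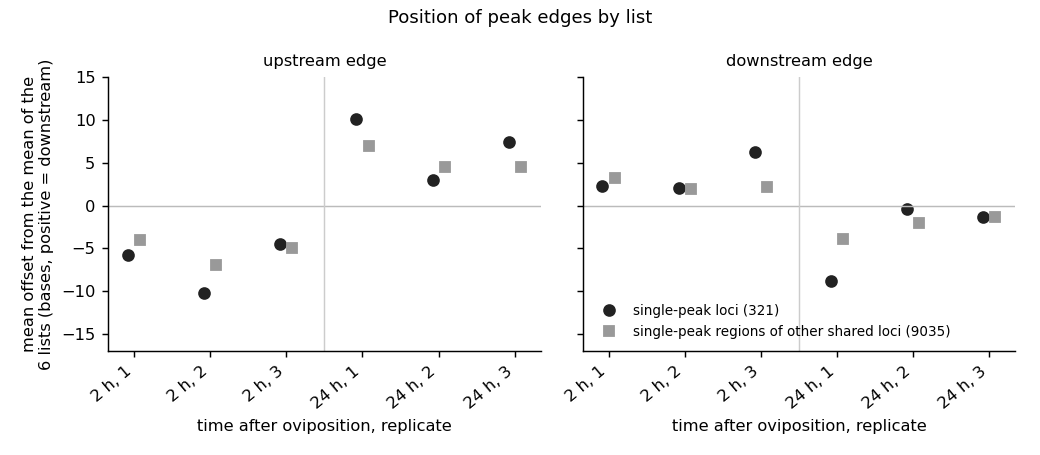
Mean offset of the upstream edge (left) and the downstream edge (right) of the peak from the mean of the 6 lists, in bases along the strand, for each list; circles are the 321 compact single-peak loci whose peaks share bases and squares the 9035 comparison regions. Upstream edges lie below 0 in the 2 h lists and above 0 in the 24 h lists, and downstream edges the other way round.

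The 5 loci named for the largest midpoint shift without overlap of the times moved in both directions. On the plus strand of NC_049732.1 from 4491267 to 4492285 the mean midpoint lay 170 bases further downstream at 24 h, and the peak spanned 994, 969 and 75 bases at 2 h and 969, 919 and 919 at 24 h. The 75-base peak lies at the upstream end of the others. On the minus strand of NC_049723.1 from 15660916 to 15661194 the shift was 97.8 bases downstream, with spans of 75, 75 and 204 bases at 2 h and 154, 179 and 50 at 24 h. Plus-strand loci of NC_049734.1 from 5906672 to 5907138 and from 8938876 to 8939175 shifted 61.2 and 50 bases downstream. In the second of these the spans were 250, 275 and 275 bases at 2 h and 200, 225 and 225 bases at 24 h, and the starts moved while the ends stayed within 50 bases. The fifth, on the minus strand of NC_049737.1 from 2668541 to 2668665, shifted by -45.8 bases, that is upstream.

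Scores were high in most of the 518 loci, and their order was closer between lists of a time than between times. The peak stood above the 50th percentile of its list in all 6 lists in 343 loci (66.2%), and above the 90th in all 6 in 128. It stood below the 50th in all 6 in 27 loci, and at or below the 10th in all 6 in 0. An infinite score occurred in at least 1 list in 53 loci and in all 6 in 15. The range of the percentile over the 6 lists had a median of 15.4 points. Spearman's rho of the percentiles averaged 0.97 for pairs of 2 h lists, 0.93 for pairs of 24 h lists and 0.83 for pairs of different times, a description over 518 loci. The strongest peaks of the other shared loci gave 0.96, 0.90 and 0.79.

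The 15 loci with an infinite score in every list tie for first place, and the 5 named are the first by sequence name and position. They are NC_049710.1 from 12708576 to 12708790 (minus strand, 200 to 215 bases), NC_049711.1 from 9470024 to 9473349 (minus strand, 3301 to 3326 bases), NC_049712.1 from 16654704 to 16655053 (plus strand, 350 bases in all 6 lists), NC_049713.1 from 2824379 to 2824703 (plus strand, 300 to 325 bases), and NC_049720.1 from 1899343 to 1899392 (minus strand, 25 or 50 bases). A peak as narrow as 25 bases can thus hold the highest score. In the last locus the 3 peaks of 2 h spanned 50 bases and the 3 of 24 h spanned 25.

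The weakest loci, those whose best list was lowest, had no base common to all 6 lists. The first is the locus of NC_049713.1 named above for its lack of common bases, at percentiles of 1.52, 27.7 and 20.3 at 2 h and 20.9, 2.31 and 9.01 at 24 h. A minus-strand locus of NC_049735.1 from 4916636 to 4916910 reached 28.6 in its best list, and minus-strand loci of NC_049710.1 from 2926851 to 2944764, NC_049724.1 from 1175082 to 1178883 and NC_049717.1 from 5492353 to 5492502 reached 29.8, 31.2 and 36.8. In all 5 the 6 peaks had 0 bases in common, although in some loci most of the 6 still overlapped. On NC_049724.1, for instance, 5 lists had peaks of 3677 to 3727 bases and the second 24 h list had 25 bases beside them. On NC_049710.1 most did not overlap. There the second 2 h peak ran from 2944715 to 2944764 and the third 24 h peak from 2926851 to 2926900.

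To compare strength between times on equal terms, the strongest peak of each of the 8945 shared loci was ranked within each list, so that every list ranked the same loci. The 518 loci had a median rank of 56.1%, 57.0% and 58.2% of these loci in the 2 h lists and 55.3%, 56.2% and 55.6% in the 24 h lists. The times overlapped (difference -1.40 points, exact two-sided permutation p = 0.2), and the sign of this difference changed under other settings, to 3.93 points without overlap in the stronger 50% of each list (p = 0.1, exact permutation). Within whole lists, the median percentile was higher at 24 h by 1.78 points for the single peaks, and by 3.14 for the strongest peaks of other shared loci. The 24 h lists were longer, with 56679 to 58161 peaks against 51157 to 55116 at 2 h. Percentiles of whole lists are therefore described without a test between times. A rank says where a peak stands among the others and not how much methylation it carries, and the input was not used to adjust it for the amount of RNA.

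Single loci did change rank. In limma fitted on all 8945 shared loci, 56 of the 518 loci (10.8%) were higher and 68 (13.1%) lower at 24 h at a Benjamini-Hochberg adjusted p under 0.05. Over all shared loci 13.1% were higher and 12.3% lower. The members' shares lie near this background, and so does the sum of both directions (124 loci or 23.9%, against 25.3%). In 118 loci (22.8%) all 24 h ranks lay above all 2 h ranks, and in 141 (27.2%) below, where all shared loci gave 21.9% and 24.1%. The number of lower calls rested on each of the 2 h lists. It was 33 without 2 h replicate 1, 26 without replicate 2 and 35 without replicate 3, with membership then set by 5 lists. Those counts are 5.62%, 4.29% and 5.67% of the single-peak loci, and in the same fits 5.76%, 4.15% and 5.05% of all shared loci were lower.

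**Figure D4:**
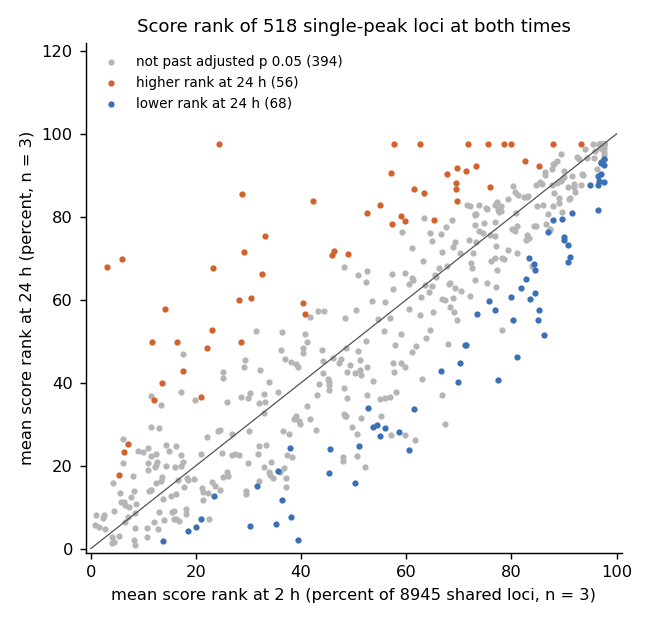
Mean score rank at 24 h (y axis) against that at 2 h (x axis), each the mean of 3 lists in percent of the 8945 shared loci, for the 518 single-peak loci; the line marks equal ranks and colours mark limma calls at adjusted p under 0.05. The 56 higher and 68 lower loci lie on both sides of the line along its whole length, and the largest moves are upwards.

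The largest rise was in a peak that kept its coordinates in all 6 lists. On the minus strand of NC_049712.1 from 4103189 to 4103238 (50 bases), the rank was 23.1%, 22.3% and 27.6% at 2 h and 97.4%, 97.5% and 97.6% at 24 h, where its score was infinite. The mean rose by 73.2 points (limma adjusted p = 0.000168). A locus of the opposite strand lay 17 bases away, and reads of the 2 may not be told apart. The second was a minus-strand locus of NC_049728.1 from 12505761 to 12506614, with ranks of 1.82%, 2.31% and 5.00% at 2 h and 68.4%, 73.0% and 62.0% at 24 h (limma adjusted p = 0.000426). Its peak spanned 529 to 579 bases at 2 h and 604 to 854 bases at 24 h, against the general narrowing.

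The third rise came with a change of span. On the minus strand of NC_049710.1 from 8999468 to 9014182 the peak spanned 100, 50 and 75 bases at 2 h and 14690, 14690 and 12917 bases at 24 h, and the rank went from 5.86% ± 2.46 to 69.9% ± 7.13 (SD, n = 3 each, limma adjusted p = 0.000836). The fourth, a minus-strand locus of NC_049728.1 from 12240852 to 12241755, went from 28.8% ± 9.75 to 85.4% ± 0.839 (SD, n = 3 each, limma adjusted p = 0.00178). The fifth, on the plus strand of NC_049726.1 from 13288455 to 13288704, went from 23.2% ± 11.9 to 67.7% ± 11.0 (SD, n = 3 each, limma adjusted p = 0.0149). Every 24 h value of these 5 loci lay above every 2 h value, as the rule for naming them requires.

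The falls were smaller, and 3 of the 5 named passed the test. The smallest adjusted p was that of the locus at 4205114 to 4206095 on the plus strand of NC_049725.1, with ranks of 41.5%, 39.3% and 37.2% at 2 h and 3.72%, 0.956% and 1.83% at 24 h (limma adjusted p = 0.00113), while its peak went from 982, 795 and 212 bases to 187, 25 and 25. The 6 peaks of that locus had 0 bases in common, so its ranks do not all belong to the same stretch. The next fall, on the plus strand of NC_049719.1 from 6611942 to 6612016, kept spans of 75 bases in 5 lists and 50 in the third 24 h list, with ranks of 77.5% ± 2.22 at 2 h and 40.6% ± 6.37 at 24 h (n = 3 each, SD, limma adjusted p = 0.00346). The last to pass, on the plus strand of NC_049729.1 from 1428349 to 1428627, had ranks of 60.6% ± 5.21 and 23.7% ± 13.4 (SD, n = 3 each, limma adjusted p = 0.0248). The remaining 2 varied widely at 24 h. A minus-strand locus of NW_023337157.1 from 175675 to 176532 had 24 h ranks of 38.1%, 46.1% and 5.67% against a mean of 67.4% ± 4.09 at 2 h (SD, n = 3, limma adjusted p = 0.0754). One on the minus strand of NC_049725.1 from 6048947 to 6049071 had 38.9%, 1.49% and 38.4% against 61.7% ± 3.71 (SD, n = 3, limma adjusted p = 0.125).

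Most single-peak loci were not isolated. The nearest locus on either strand lay at a median of 2292 bases, with quartiles of 736 and 4386, and 43 loci (8.30%) had none within 10000 bases. The other shared loci had a median of 2002 bases, quartiles of 480 and 3444, and 7.27% with none within 10000. Distances pool the 6 lists and have no replicates, so they are descriptions with no test. On the opposite strand the nearest locus was farther from single-peak loci, at a median of 5459 bases against 2010, and 12 (2.32%) overlapped one, against 8.21% of other shared loci. Other shared loci with at most 2 peaks per list had a median of 3459 bases and 4.35% overlapping. Loci with at most 1 peak per list and absent from 1 to 5 lists had 20085 bases and 1.38%. A longer locus has more room to overlap, and that difference in length was not adjusted for. In 11 single-peak loci the peak shared bases with an opposite-strand peak of its own list in at least 1 list, and in 6 of them in every list. The nearest locus was another shared locus in 343 cases (66.2%), near the 67.3% found for other shared loci. It was a further single-peak locus in 36 (6.95%, against 3.54%) and a locus with peaks only at 24 h in 7 (1.35%, against 3.01%). In 132 cases (25.5%, against 25.7%) it was a locus outside these classes.

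On their own strand the single-peak loci had near neighbours downstream more often than upstream. Distances to the next same-strand locus had a median of 5487 bases on the downstream side (514 loci) and 15651 bases on the upstream side (513 loci). Within 10000 bases a downstream neighbour was present for 336 loci (64.9%) and an upstream one for 213 (41.1%). Of the 509 loci with neighbours on both sides, the nearer was upstream in 156 (30.6%, exact 95% binomial interval 26.7% to 34.9%, which treats loci as independent). In other shared loci the medians were 12562 bases downstream and 9273 bases upstream, and the nearer lay upstream in 53.9%.

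Parts of the single-peak loci and other sets of loci had shares from 22.9% to 59.7%. The nearer neighbour was upstream in 29.0% of plus-strand and 32.2% of minus-strand single-peak loci. It was upstream in 34.4% of the compact loci and 22.9% of the others. Other shared loci with at most 2 peaks per list had 38.5% (989 loci), those with over 2 peaks in every list 59.7% (4324 loci), and loci with at most 1 peak per list but absent from 1 to 5 lists 42.2% (4507 loci). Of the 336 near downstream neighbours 217 were other shared loci and 24 were single-peak loci, and they held a median of 2.33 peaks per list. Of the 213 near upstream neighbours 137 were other shared loci and 24 were single-peak loci, with a median of 2 peaks per list. Among shared loci the share was thus higher in the sets with more peaks, from 30.6% in the single-peak loci to 38.5% and 59.7%. The loci absent from 1 to 5 lists, at 42.2%, stood above the shared loci with at most 2 peaks. Those loci also differ from shared loci in their presence across the lists. Whether the share depends on the number of peaks was therefore not tested. No annotation was used, so whether a single-peak locus and its downstream neighbour belong to 1 transcript was not tested.

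**Figure D5:**
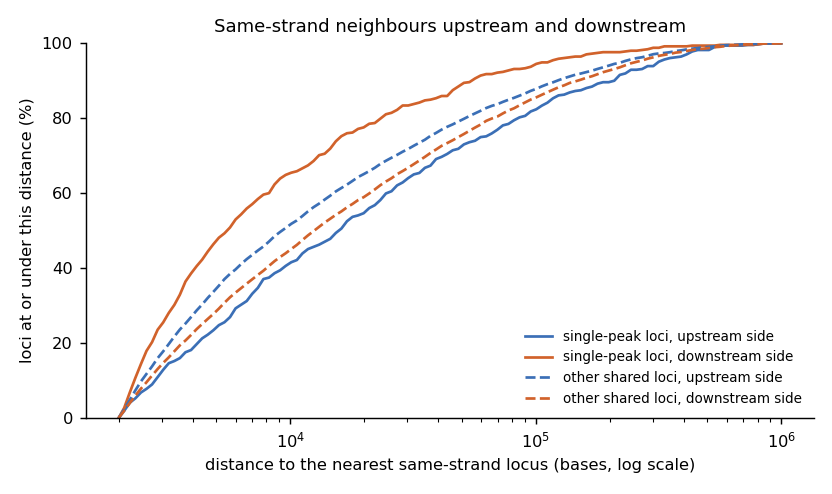
Share of loci (y axis, percent of the loci with a neighbour on that side) whose nearest same-strand locus lies at or under a given distance (x axis, bases, log scale), upstream and downstream, for the 518 single-peak loci (solid) and the other shared loci (dashed). The solid downstream curve runs above the other 3 over most of its length, and the solid upstream curve runs lowest over most of its length.

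A few loci stood far from any other. The farthest, on the plus strand of NC_049726.1 from 14180311 to 14180485, lay 114105 bases from the nearest locus and spanned 125, 125 and 150 bases at 2 h and 175, 150 and 175 at 24 h, at percentiles from 85.6 to 92.3. A plus-strand locus of NC_049715.1 from 9972121 to 9972270 lay 93332 bases away, with percentiles from 28.0 to 74.4. Next came NC_049722.1 from 2903789 to 2904738 on the plus strand, 88227 bases away, which spanned 150 bases in each 2 h list and 75, 925 and 100 bases at 24 h. The next were minus-strand loci of NC_049717.1 from 1362630 to 1363129, at 67153 bases, and of NC_049721.1 from 11093327 to 11093651, at 51103 bases. Both rose in rank at 24 h, from 82.6% ± 1.46 to 93.6% ± 0.459 (SD, n = 3 each, limma adjusted p = 0.0087) and from 69.7% ± 3.61 to 91.7% ± 0.940 (SD, n = 3 each, limma adjusted p = 0.0034). The locus of NC_049722.1 fell, from 55.2% ± 1.91 to 31.9% ± 18.7 (SD, n = 3 each, limma adjusted p = 0.134). In the loci of NC_049726.1 and NC_049715.1 the ranks of the times overlapped.

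The loci were spread over 43 sequences. On the 31 sequences with at least 100 shared loci they made up from 2.22% of 180 shared loci on NC_049740.1 (exact 95% binomial interval 0.609% to 5.59%) to 11.2% of 258 on NC_049728.1 (7.66% to 15.7%). NC_049735.1 had 10.4% of 251 (6.88% to 14.8%) and NC_049712.1 10.3% of 263 (6.88% to 14.6%). The intervals cover counting error only. A further 12 loci lay on unplaced scaffolds.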

How the data were processed

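Poly(A) RNA of whole embryos was fragmented and captured with an m6A antibody, per the labels' protocols. The submitters' processing notes name HOMER, HISAT2 2.1.0, Bowtie2 2.2.5 and fastp 0.20.0 without roles. No source used here gives the peak caller, its threshold or the genome build. The authors deposited 1 peak list per captured sample with a score per peak of unstated scale, used here only to rank.

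Same-strand peaks under 2000 bases apart were joined (17120 loci, the same number with bedtools 2.31.1). Percentiles are ranks within a list, and infinite scores tie. Lists were compared with exact permutation tests (3 against 3), and with sign-flip tests over 3 pairs for the replicate block. Score ranks among the 8945 shared loci were turned into normal scores and fitted with limma 3.58.1 (R 4.3.3), with Benjamini-Hochberg adjustment over all of them. Joining and fit were tested on simulated data. Other tools were scipy 1.17.1, pandas 2.3.3 and numpy 2.4.6 under Python 3.11.15, with matplotlib 3.10.9 for plots.

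The loci, lists and tests were chosen with earlier results of these data known. Named loci were, by rule, the 5 with the highest smallest and the 5 with the lowest largest percentile, the 5 largest rises and 5 largest falls of rank and the 5 largest midpoint shifts without overlap of the times, the 5 most remote and the 3 widest. Alternatives were joining distances of 500 and 10000 bases, the stronger 50% of each list, lists cut to 51157 peaks, no 75-base peaks, spans of at most 1000 bases, strand ignored, each list left out, a replicate block, untransformed ranks, means in place of medians, a common stretch of 50%, and, added later, compact loci alone and the strongest peak of each other shared locus.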

Additional observations from a re-analysis of the deposited data

How the results depend on the processing

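The number of single-peak loci depends on the joining distance: 518 became 1740 at 500 bases and 106 at 10000, with 1554 and 94 of them sharing bases, 183 and 13 higher, 202 and 16 lower in rank, a median nearest distance of 815.5 and 4863 bases, and 37.6% and 35.6% with the nearer same-strand neighbour upstream. With strand ignored there were 319 loci, 293 sharing bases, 33 higher in rank, and a nearest distance of 3611 bases. Spans of at most 1000 bases gave 35.7% with the nearer neighbour upstream, and the stronger 50% of lists gave 130 loci higher in rank. The replicate numbers did not pair the lists (correlations of their deviations 0.0209, -0.0162 and 0.0139). With the replicate block 36 loci (6.95%, against 6.6% of all shared loci) were lower in rank and 46 (8.88%, against 9.87%) higher. For the differences in width, 75-base share, median rank and midpoint the block cannot change the value, only its p-value, so it is no check of their sign. Beyond these and the rank calls it was not run. An exact sign-flip test over 3 pairs cannot go below p = 0.25. The lower median width at 24 h kept its direction under every alternative run, from -58.3 bases without 75-base peaks to -7.67 with spans of at most 1000 bases.

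Of the differences without a separation of the times, 3 changed sign. The 75-base share, -0.129 points, turned to 1.30 at 500 bases, 0.310 in the stronger 50%, 0.680 at equal list length and 0.665 with spans of at most 1000 bases. The median rank, -1.40 points, turned to 0.394 at 500 bases, 2.39 at 10000 bases, 3.93 in the stronger 50% and 0.350 without 75-base peaks. The mean midpoint shift, 1.16 bases, turned to -1.86 at equal list length, -1.85 without 75-base peaks and -6.51 with spans of at most 1000 bases. The cause was not tested.

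Leaving out 1 list sets membership by 5 lists and gave 587 to 674 loci, 520 to 614 sharing bases, 46 to 63 higher and 26 to 80 lower in rank. The 75-base share then ranged from -0.470 to 1.20 points, the median rank from -1.30 to 0.464, and the midpoint shift from -5.45 to 12.9 bases. The width excess over other shared loci was 131.5 to 146.4 bases and the percentile excess 25.7 to 27.9 points on average over 5 lists. Both remain descriptions with no test.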

Other observations

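Of the 5 largest rises in rank, 2 lay on the minus strand of NC_049728.1, which had the highest share of single-peak loci among the sequences with at least 100 shared loci. A single-peak locus beside them, from 12238483 to 12238582 and 2269 bases from the one starting at 12240852, was picked after its values were seen. Its peak spanned 75 bases in each 2 h list and 100 bases in each 24 h list. Its score rank was 64.8%, 63.8% and 59.3% at 2 h and 97.4%, 97.5% and 97.6% at 24 h, with no overlap (limma adjusted p = 0.000319). Of the next single-peak loci beyond 12506614, on the plus strand, the one from 12606680 to 12606804 went from 49.0% ± 1.00 to 71.1% ± 4.48 (SD, n = 3 each, limma adjusted p = 0.0127), and the one from 12612513 to 12612562 stood at means of 5.63% and 13.5% (limma adjusted p = 0.0786). No test of clustering was made.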
